A study of Gossypium hirsutum with 18 samples.

Results

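The response of WMJJ roots to Meloidogyne incognita, a root-knot nematode (RKN), was measured as the difference between infested roots (WMJJ_rkn, 3 libraries) and roots of plants that were not infested (WMJJ_ctl, 3 libraries). Wild Mexico Jack Jones (WMJJ) is an upland cotton, Gossypium hirsutum, that the labels describe as mildly resistant to RKN. All genes that averaged 1 unit or more across the series' 18 libraries were taken, which are 46813 of the 54508 genes deposited. The other 12 libraries came from the susceptible Acala SJ2 and the resistant Acala NemX, each with 3 control (ctl) and 3 infested (rkn) libraries from the same scheme. Seedlings of 12 days received 5000 second-stage juveniles (J2) per plant, disease was followed for 10 days, and roots were taken from plants of 23 days, with 5 plants in the labels. Controls were plants of the same genotype and age without nematodes, given water in their place. WMJJ differs from SJ2 and NemX across its whole genetic background, so a difference between genotypes cannot be tied to 1 resistance locus. Whole roots were ground, so galled and ungalled tissue were mixed in unknown parts. A change in the number of cells of a type and a change in RNA per cell cannot be told apart in such samples.

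Second-stage juveniles of RKN enter near the root tip and move between cells to the vascular cylinder. There they turn a few plant cells into giant cells, large feeding cells with many nuclei, and the division and swelling of neighbouring cells form the gall. Plants recognise such attack with receptors at the cell surface and with intracellular receptors of the NBS-LRR class, and jasmonic acid and salicylic acid are among the hormones that relay defence. Upland cotton is an allotetraploid, which means that each nucleus holds an A and a D subgenome with related copies of most genes. Reads from near-identical A and D copies could have been split between them, so the 2 copies of a pair are not independent. WMJJ has served as a source of resistance in cotton breeding, and a region for it has been placed on chromosome D02.

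Each value was a normalized abundance near CPM (counts scaled to a fixed library total), as the authors deposited it. The 6 WMJJ library totals ran from 957278 to 999410, and the 12 other totals from 852215 to 1096547, with the lowest values in SJ2_ctl. The lowest non-zero values put 1 read at about 0.3231, 0.2161 and 0.1528 units in WMJJ_ctl and at 0.2192, 0.2698 and 0.07966 units in WMJJ_rkn, in the order of the replicates. Read from these steps, the WMJJ libraries held about 2962899, 4495146 and 6459343 reads in WMJJ_ctl and 4426039, 3633045 and 12545945 in WMJJ_rkn. The third infested library was therefore the deepest. A value below 1 rests on a handful of reads in the shallow libraries, and such values are read as low and no more. Across genes, the log2 values of WMJJ_ctl libraries correlated with each other at 0.9426 to 0.9573, those of WMJJ_rkn at 0.9367 to 0.9623, and a control with an infested library at 0.8543 to 0.9007. The median SD between replicates was 0.259 on the log2 scale in both groups. The genes are given by their identifiers in the genome of the line TM-1, since the table of gene names at hand matched 0 of the 54508 identifiers. Markers of root cell types could not be checked for the same reason.

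Infestation changed 10.4% of the genes tested in WMJJ roots, in both directions. Called genes have a Benjamini-Hochberg adjusted p below 0.01 in limma and a change of more than 1 on the log2 scale, and 2623 genes rose (5.6% of the 46813 tested) and 2264 fell (4.84%). The 2 directions had nearly the same size, with a median log2 fold change of 1.54 among the genes that rose and -1.53 among those that fell, while the median of all tested genes was -0.004. Changes above 2 on the log2 scale were seen in 599 genes that rose and 533 that fell, changes above 3 in 108 and 82, and changes above 4 in 18 and 8. The 3 infested libraries lay wholly above the 3 controls in 2611 of the called genes that rose and wholly below in 2257 of those that fell. Over all tested genes, such a separation was seen in 19.1% upward and 17.5% downward. Leaving out any 1 WMJJ library left between 2101 and 2539 genes rising and between 1742 and 2235 falling.

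**Figure D1:**
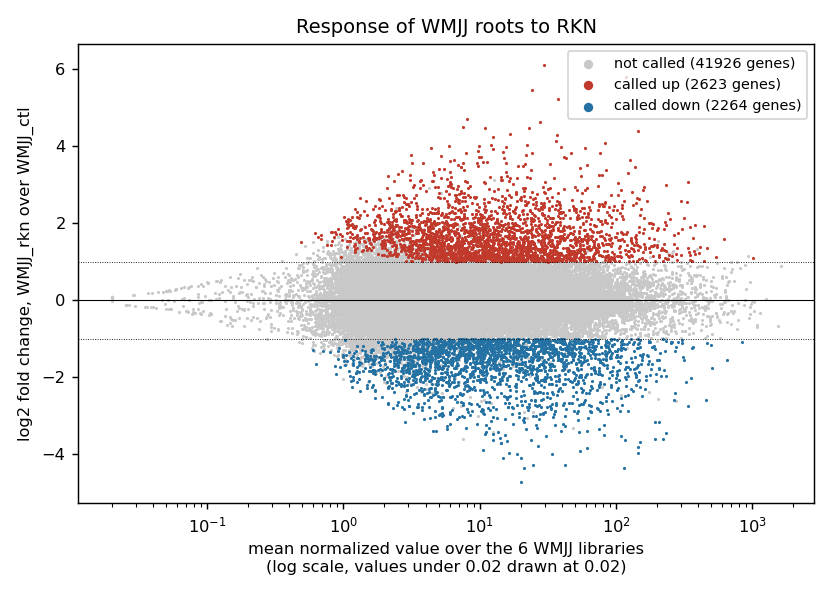
Log2 fold change of WMJJ_rkn over WMJJ_ctl (vertical axis) against the mean normalized value over the 6 WMJJ libraries (horizontal log axis), with 1 point per tested gene and dotted lines at 1 and -1. The 2623 genes called up (red) and 2264 called down (blue) lie on both sides from low to high levels, and the largest changes stand at middle levels.

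Genes at all levels took part, and the share called grew with the level. Among 16530 genes with a WMJJ mean below 5, 3.8% rose and 3.52% fell. Among 18282 genes from 5 to 20 the shares were 5.88% and 4.68%, and among 10590 genes from 20 to 100 they were 7.26% and 6.41%. Of the 1411 genes at 100 or more, 10.7% rose and 10.5% fell. The median standard error of the fold change was 0.35 in the lowest class and 0.23 from 5 to 20. It was 0.17 from 20 to 100 and 0.18 at 100 or more, although the shares called still rose between these classes. Whether the standard error accounts for the rise in the share called was not tested.

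The called genes held a large part of the measured RNA. The genes that rose made up 3.56%, 4.1% and 3.87% of the library total in the 3 WMJJ_ctl libraries and 12.0%, 10.7% and 12.2% in WMJJ_rkn. The genes that fell went from 11.3%, 10.2% and 9.84% to 3.06%, 3.97% and 2.86%. These shares describe genes chosen for their change in the same libraries. In the other genotypes, whose libraries had no part in the choice, the genes that rose in WMJJ went from 4.2% to 4.83% in SJ2_ctl to between 10.1% and 11.5% in SJ2_rkn, and from 5.35% to 5.53% in NemX_ctl to 7.25% to 8.03% in NemX_rkn. The genes that fell in WMJJ went from 6.99% to 7.76% to 3.05% to 4.34% in SJ2, and from 10.4% to 10.6% to 6.48% to 7.14% in NemX. The infested and control libraries did not overlap in either genotype.

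Gohir.A05G316200, on chromosome A05, had the largest increase among genes whose WMJJ libraries did not overlap. It was at 0, 0.874 and 0.303 in WMJJ_ctl and at 54.1, 40.4 and 81.4 in WMJJ_rkn, and its log2 fold change was 6.11 ± 0.45 (SE, limma adjusted p = 1.15e-08). It went from nearly absent to clearly measured in SJ2 as well, where the infested libraries read 169, 200 and 151. In NemX the gene was already present without nematodes, at 9.66, 11.4 and 10.3, and reached 28.9, 41.2 and 36.1. The WMJJ response exceeded that of NemX by 4.41 ± 0.64 (limma adjusted p = 5.82e-04, or 0.0104 with 0.1 in place of 0.5 added to the values), while the test against SJ2 was not passed (difference -0.78 ± 0.64, limma adjusted p = 0.574).

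Gohir.D01G216800 had the second largest increase. Its WMJJ_ctl libraries were at 1.62, 4.37 and 5.21 and its WMJJ_rkn libraries at 251, 119 and 329, a log2 fold change of 5.78 ± 0.49 (limma adjusted p = 4.76e-08). The infested SJ2 libraries, at 63.0, 70.5 and 69.3, all lay below those of WMJJ, and SJ2_ctl was at 0 to 2.78. The response itself was not called different from that of SJ2 (difference -0.24 ± 0.69, limma adjusted p = 0.915). NemX_rkn stayed near its control level, with 11.9, 16.3 and 13.4 against 7.82, 7.07 and 9.79, and the WMJJ response was 5.06 ± 0.69 above that of NemX (limma adjusted p = 3.75e-04).

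Gohir.D11G008500 had the largest decrease. It read 40.4, 33.1 and 43.2 in WMJJ_ctl and 0.442, 1.63 and 1.13 in WMJJ_rkn, which is a log2 fold change of -4.72 ± 0.35 (limma adjusted p = 1.23e-08). The gene fell in all 3 genotypes, to 1.53, 0.357 and 2.5 in SJ2_rkn and to 12.2, 5.85 and 7.84 in NemX_rkn. The decrease in WMJJ was larger than in NemX (difference -2.99 ± 0.50 on the log2 scale, limma adjusted p = 0.00168). Without the third library of both WMJJ groups that adjusted p was 0.0101.

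Gohir.D02G099900, on D02, had the second largest decrease. WMJJ_ctl was at 270, 189 and 199, above every library of the other genotypes, and WMJJ_rkn was at 7.59, 16.5 and 7.91, with a log2 fold change of -4.37 ± 0.23 (limma adjusted p = 3.73e-10). In SJ2 the gene went from 62.1, 68.0 and 65.3 to 18.1, 14.6 and 24.4, and in NemX from 145, 151 and 117 to 63.7, 67.1 and 60.9. The direction was shared by the 3 genotypes and the size was not. The WMJJ response was lower than that of SJ2 by -2.59 ± 0.32 (limma adjusted p = 1.90e-05) and than that of NemX by -3.28 ± 0.32 (limma adjusted p = 1.62e-05).

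**Figure D2:**
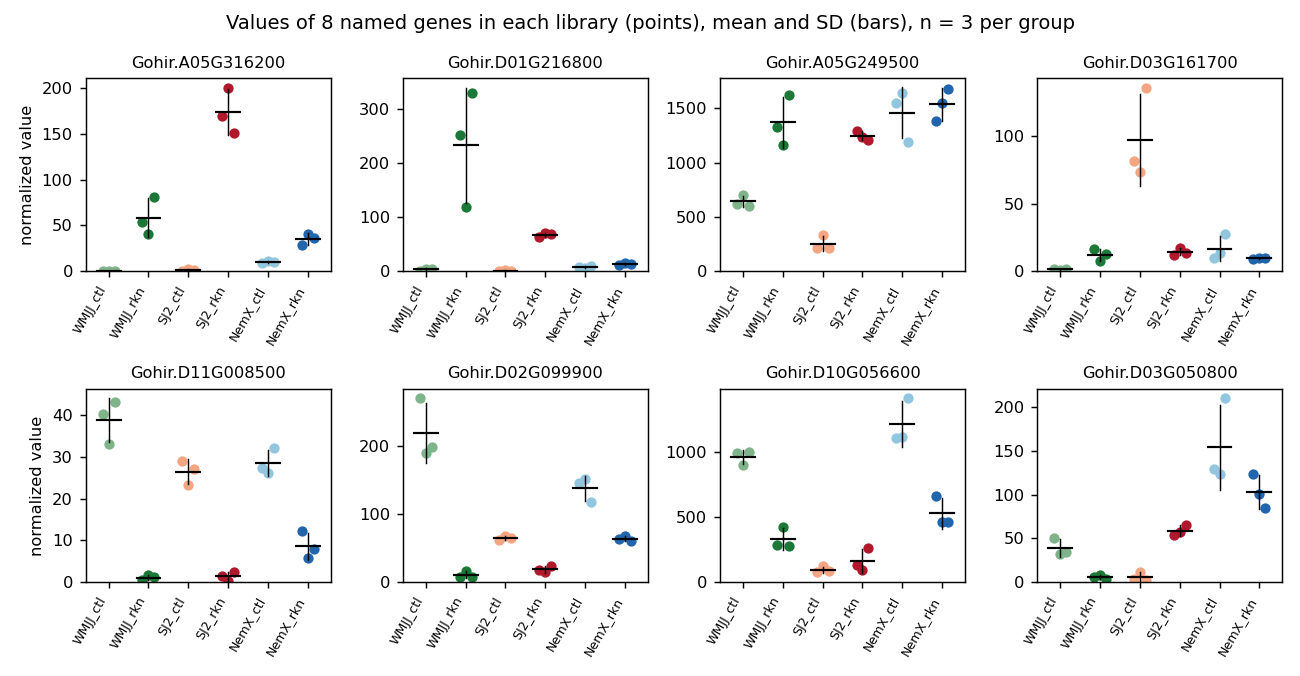
Normalized value (vertical axis, from 0) of 8 named genes in each of the 18 libraries, with points for libraries, a horizontal bar for the group mean and a vertical bar for 1 SD on each side (n = 3 per group). The 3 WMJJ_rkn points lie above the 3 WMJJ_ctl points in the genes of the upper row and below them in the lower row.

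The called genes with the highest levels changed less. Gohir.A05G249500 was at 621, 705 and 606 in WMJJ_ctl and at 1330, 1160 and 1620 in WMJJ_rkn, a log2 fold change of 1.08 ± 0.20 (limma adjusted p = 3.40e-04). That is close to the fold threshold, and the call was lost without the third infested library (0.95 ± 0.21) and in a fit on the WMJJ libraries alone (limma adjusted p = 0.014). Its level in NemX was at 1190 to 1640 without nematodes, as high as in infested WMJJ, and 1380 to 1680 with them. Gohir.D11G026600 showed the same arrangement with less spread, from 305, 308 and 317 to 1010, 834 and 947 in WMJJ (1.58 ± 0.14, limma adjusted p = 7.80e-08) and from 519 to 589 to 528 to 596 in NemX. Here the WMJJ response was 1.60 ± 0.20 above that of NemX (limma adjusted p = 1.48e-04).

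Of the most abundant genes that fell, Gohir.D10G056600 went from 992, 903 and 1000 to 290, 427 and 279 in WMJJ (-1.57 ± 0.28, limma adjusted p = 3.07e-04). SJ2 held this gene at a low level in both treatments, 80.8 to 122 in controls and 90.9 to 266 after infestation. NemX_ctl was at 1110 to 1420 and NemX_rkn at 460 to 667, near the WMJJ values. The WMJJ response was lower than that of SJ2 by -2.19 ± 0.40 (limma adjusted p = 8.44e-04). Gohir.D09G156700 went from 1370, 903 and 1190 to 446, 599 and 561 (-1.10 ± 0.21, limma adjusted p = 7.09e-04), and its call was lost without the first library of either WMJJ group (-0.96 and -0.97) and in a fit on the WMJJ libraries alone (limma adjusted p = 0.017).

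A few genes were measured in infested WMJJ roots and listed at 0 in all 3 controls, 7 in all. Gohir.D10G039500 was the highest of them, at 6.77, 5.49 and 6.6 in WMJJ_rkn (limma adjusted p = 1.21e-05). In SJ2 and NemX it did not exceed 2.32 in any library, but its response was not called different from theirs (limma adjusted p = 0.0125 and 0.0261). Gohir.D07G180900 was at 1.78, 5.74 and 7.49 in WMJJ_rkn and at 0 in all NemX libraries and in all SJ2 libraries but 1, which read 5.72. Its call (limma adjusted p = 0.00103) was lost when the third libraries of both WMJJ groups were left out (limma adjusted p = 0.0205). Nor was its response called different from that of SJ2 or NemX (limma adjusted p = 0.215 and 0.0554). No fold change is given for these genes, because the controls allow none.

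The first comparison across genotypes asks how much of the WMJJ response is also seen in the susceptible SJ2. Of the 2623 genes that rose in WMJJ, 1420 rose in SJ2, which is 54.1% of the WMJJ genes and 37.5% of the 3787 that rose in SJ2 (8.09% of all tested). Of the 2264 that fell, 939 fell in SJ2, or 41.5% of the WMJJ genes and 33.9% of the 2770 that fell in SJ2 (5.92% of all tested). The genes that rose in WMJJ had a median log2 fold change of 1.18 in SJ2, and those that fell had -0.90, while the median of all tested genes in SJ2 was -0.044. The sign was the same in 2408 and 1803 of them. Over all 46813 genes the fold changes of WMJJ and SJ2 had a Pearson r of 0.574 and a Spearman rho of 0.533, across genes, which are not independent replicates.

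The same genes moved much less in the resistant NemX. In all, 266 genes rose in NemX (0.568%) and 312 fell (0.666%), and most of them were also called in WMJJ. There were 207 genes that rose in both, 77.8% of the NemX genes and 7.89% of the WMJJ genes, and 235 that fell in both, 75.3% and 10.4%. These counts rested on single NemX libraries. When NemX controls 1 and 2 were left out in turn, the 207 became 116 and 132, and with infested NemX libraries 1, 2 and 3 left out in turn it became 125, 122 and 91. For the 235, the counts were 103, 98 and 154 with NemX controls 1, 2 and 3 left out in turn, and 138, 120 and 107 for the infested NemX libraries. The genes that rose in WMJJ had a median log2 fold change of 0.52 in NemX and those that fell had -0.62, below the threshold of 1 used for calls, against -0.021 over all tested genes. Their sign in NemX was that of WMJJ in 2232 and 2102 genes. Across all 46813 genes the Pearson r was 0.528 and the Spearman rho 0.472. These 3 responses share no library.

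**Figure D3:**
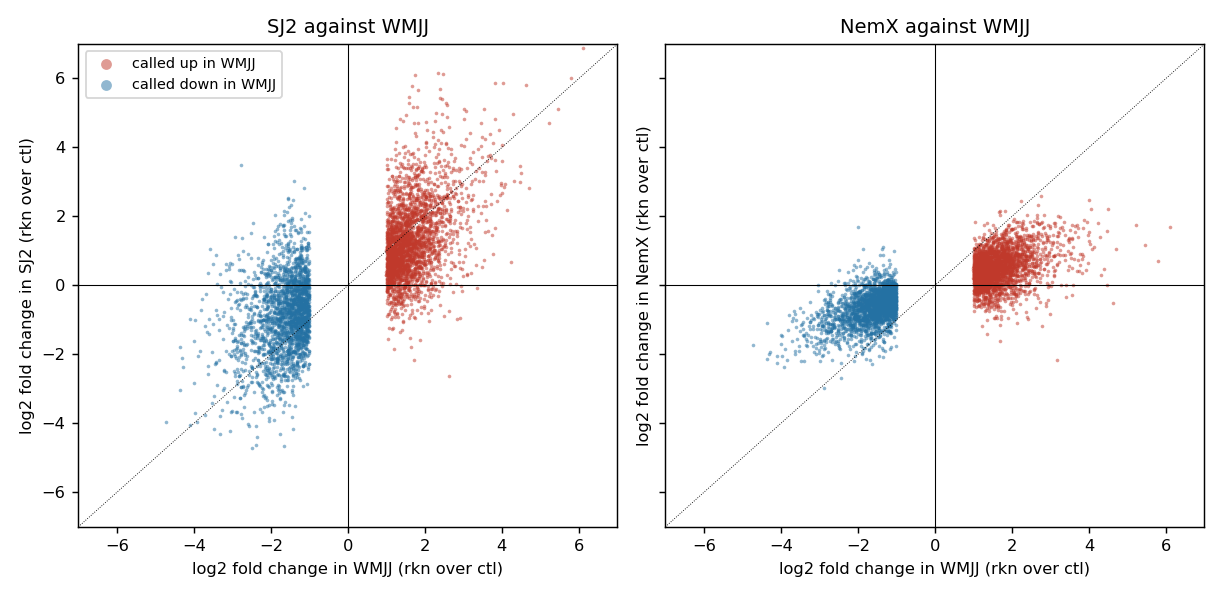
Log2 fold change (rkn over ctl) in SJ2 (left) and in NemX (right) on the vertical axis against that in WMJJ on the horizontal axis, for the 2623 genes called up (red) and the 2264 called down (blue) in WMJJ; the dotted line marks equal changes. In SJ2 the points spread around that line, with medians of 1.18 and -0.90, and in NemX they lie nearer to 0, with medians of 0.52 and -0.62.

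The test of the difference itself, the WMJJ response minus the response of the other genotype in the same fit, was run over all tested genes. Against SJ2, 526 genes were higher in WMJJ (1.12%) and 1850 lower (3.95%). With every library scaled to an equal total these counts were 849 and 1485, so that the share of higher genes went from 22.1% to 36.4%, and the median difference over all genes shifted by 0.15 on the log2 scale. Without the first infested WMJJ library 345 genes were higher. Against NemX, 490 genes were higher (1.05%) and 194 lower (0.414%), or 382 and 246 with equal totals, a share of 71.6% or 60.8% higher. The counts against NemX rested on single libraries more than the others did. The higher genes numbered 222 without the first infested WMJJ library, 249 without the first WMJJ control, 295 without the third infested WMJJ library, 274 without the second NemX control, and 245 and 282 without the first and the third infested NemX library. The lower genes numbered between 74 (without the first library of either WMJJ group) and 353 (without the second infested WMJJ library). They numbered 131 without the second infested NemX library, 137 without the third WMJJ control, and 75 to 111 without any other single library.

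Among the genes that rose in WMJJ, 247 had a response called higher than in SJ2 and 138 lower, and 450 were called higher than in NemX. Among those that fell, 532 were called lower than in SJ2 and 17 higher, and 181 were called lower than in NemX. The WMJJ difference entered both the call and the interaction, which tilts these counts toward larger responses in WMJJ. Of the 1119 genes called up in WMJJ alone, 187 passed the test against SJ2, 116 the test against NemX and 54 both. Of the 1112 called down in WMJJ alone, 355, 76 and 61 did. For the rest, a call in WMJJ alone does not show that the genotypes differed.

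Some genes were called in all 3 genotypes, 135 upward and 108 downward of the 46813 tested. Each needs a call in NemX, and the calls shared with NemX rested on single NemX libraries, as given above. The genes were chosen by calls on the same values, so their levels are a description. The median over the 135 genes was 7.93, 9.17 and 7.74 in WMJJ_ctl and 38.7, 40.0 and 43.5 in WMJJ_rkn. SJ2 went from 8.07 to 11 in controls to 39.3 to 49.8, and NemX from 10.9 to 11.6 to 28.5 to 32.6. Controls thus began at similar levels, and NemX reached the lowest infested level. The 108 genes that fell had medians of 44.3, 41.4 and 36.6 in WMJJ_ctl and 7.26, 8.47 and 6.85 in WMJJ_rkn, and 12.3 to 15.2 in NemX_rkn.

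Gohir.D05G296000 rose in all genotypes by the largest least change, from 4.12, 4.93 and 3.82 to 30.6, 25.2 and 41.0 in WMJJ. Its log2 fold changes were 2.75 ± 0.26 in WMJJ, 3.62 ± 0.26 in SJ2 and 2.59 ± 0.26 in NemX. Gohir.A09G208450 was next, at 0, 0.436 and 0.305 in WMJJ_ctl and 9.34, 16.7 and 8.9 in WMJJ_rkn (4.01 ± 0.51). Of the genes that fell in all genotypes, Gohir.A12G125800 went from 13.5, 6.5 and 6.04 to 0.641, 1.33 and 0.258 in WMJJ, and its log2 fold changes were nearly equal, -2.89, -2.87 and -2.98 (SE 0.38 each). Gohir.A07G016200 went from 15.2, 13.0 and 9.26 to 1.55, 2.18 and 1.93 (-2.43 ± 0.25).

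WMJJ and NemX shared calls that SJ2 lacked, 72 genes upward and 123 downward. They were chosen by calls on the same control and infested values, which favours SJ2 controls near the infested level, so their levels are given as a description. The 123 genes that fell had a median of 44.5, 37.7 and 34.8 in WMJJ_ctl and of 42.1 to 43.5 in NemX_ctl, and only 10.6 to 11.3 in SJ2_ctl. After infestation the medians were 9.09 to 11.4 in WMJJ, 16.5 to 17.5 in NemX and 7.93 to 11.9 in SJ2. The infested WMJJ medians lay in the range of SJ2. The 72 genes that rose had medians of 5.41 to 6.01 in WMJJ_ctl and 6.05 to 7.22 in NemX_ctl against 15.2 to 20 in SJ2_ctl, and of 20.2 to 24.7, 18.3 to 18.4 and 21.6 to 24.7 after infestation. The response was called higher in WMJJ than in SJ2 for 40 of the 72 and lower for 74 of the 123. Over all tested genes the shares were 1.12% and 3.95%. A call in WMJJ with none in SJ2 favours such a difference, so these counts are a description too.

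A set of 90 genes fell in WMJJ and rose in SJ2, and 12 genes did the reverse. Opposite calls in 1 fit set a difference above 2 on the log2 scale, so a test of that difference adds no evidence. The p-values of the difference given below for some of these genes repeat the choice. Their levels also come from the libraries that chose them. The median level of the 90 genes was 55.1, 54.8 and 51.3 in WMJJ_ctl and 19.0, 29.8 and 16.4 in WMJJ_rkn, while SJ2 went from 6.21, 8.49 and 6.73 to 21.2, 18 and 27.4. NemX_ctl stood at 64.6 to 77.0 and NemX_rkn at 41.3 to 46.1. The genotypes began far apart, and infested WMJJ and SJ2 roots ended at medians that overlap. With equal library totals the counts were 66 and 17, and leaving out any 1 library gave 62 to 115 and 5 to 14. The 12 became 5 without the first infested WMJJ library, 6 without the third WMJJ control, and 7 without the third infested WMJJ library or the second SJ2 control. Without the third library of both WMJJ groups the counts were 58 and 6.

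**Figure D4:**
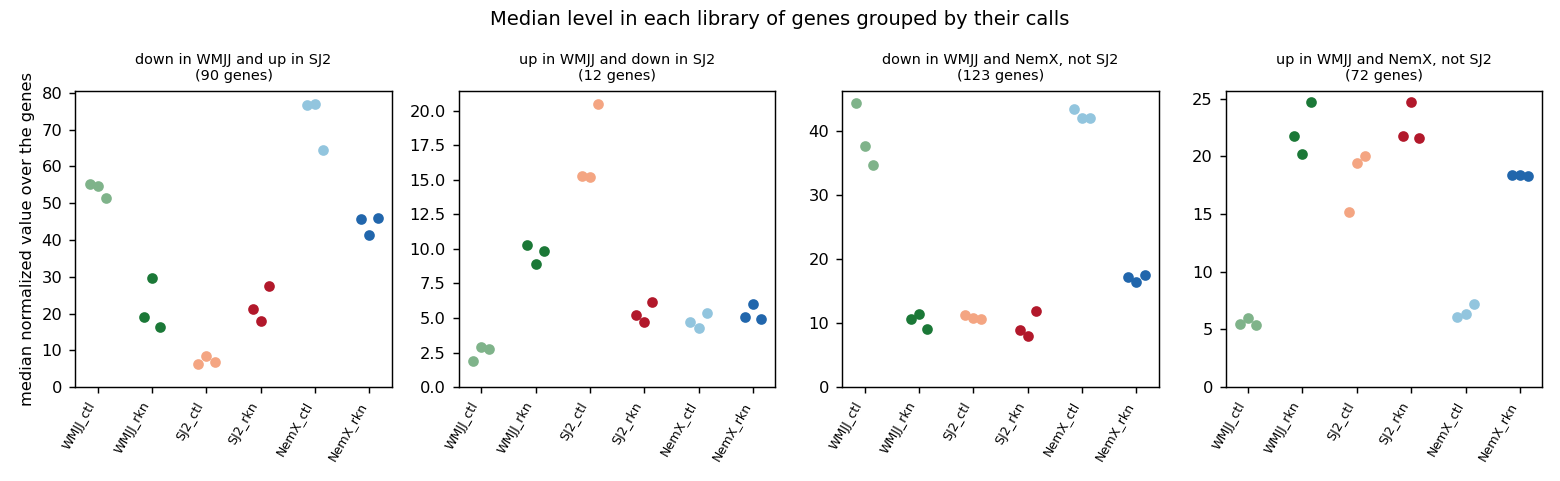
Median normalized value over the genes of a pattern (vertical axis, from 0) in each library, for 4 patterns of calls, with 1 point per library and 3 per group. The SJ2_ctl points lie below those of WMJJ_ctl in the first and the third panel and above them in the second and the fourth. For the 90 genes of the first panel WMJJ_ctl lies at 51.3 to 55.1 and SJ2_ctl at 6.21 to 8.49.

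Gohir.D03G050800 had the largest negative difference from SJ2. It fell in WMJJ from 50.3, 32.2 and 34.1 to 5.34, 7.89 and 3.18 (-2.77 ± 0.37, limma adjusted p = 1.33e-05) and rose in SJ2 from 3.19, 12.0 and 2.67 to 54.2, 57.3 and 65.4 (3.49 ± 0.37). The 2 genotypes exchanged places, and the difference between the responses was -6.27 ± 0.53 (limma adjusted p = 3.26e-07). NemX kept the gene high in both treatments, at 123 to 210 and 84.4 to 123. Gohir.D07G187200 was second, with 26, 25.6 and 27.4 in WMJJ_ctl and 1.34, 2.19 and 1.82 in WMJJ_rkn (-3.57 ± 0.34), against 2.57 to 4.08 and 3.18 to 14.7 in SJ2, and a difference of -4.64 ± 0.49 (limma adjusted p = 3.08e-06). Gohir.A03G160500 went from 8.34, 9.51 and 7.34 to 2.63, 3.25 and 2.69 (-1.40 ± 0.33, limma adjusted p = 0.00343) and rose in SJ2 by 3.04 ± 0.33. The difference was -4.44 ± 0.46 (limma adjusted p = 2.92e-06). Its own decrease in WMJJ was less firm, since the call was lost without the first or second control or the first or the third infested library (limma adjusted p of 0.0129 to 0.0176).

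Gohir.D03G161700 and Gohir.D03G161800, which have neighbouring identifiers, had the largest positive differences from SJ2. The first was at 1.86, 1.1 and 1.52 in WMJJ_ctl and 16.3, 7.45 and 12.6 in WMJJ_rkn, a log2 fold change of 2.61 ± 0.31 (limma adjusted p = 3.01e-06). In SJ2 it went from 81.5, 73.3 and 136 to 12.4, 17.7 and 14.0, so that the infested roots of both genotypes lay in 1 range. The difference between the responses was 5.25 ± 0.44 (limma adjusted p = 3.26e-07). Gohir.D03G161800 went from 6.31, 3.61 and 6.0 to 23.3, 10.7 and 23.9 in WMJJ (1.72 ± 0.31) and from 33.2, 29.6 and 53.9 to 8.18, 8.21 and 7.62 in SJ2 (difference 3.88 ± 0.43, limma adjusted p = 6.12e-06). Both had a response above that of NemX, by 3.28 ± 0.44 and 2.70 ± 0.43. Reads of similar neighbouring genes could be split between them, so the 2 are not counted as independent. In a fit on the WMJJ libraries alone the increase of Gohir.D03G161800 was not called (limma adjusted p = 0.012).

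Against NemX, the largest positive differences among genes called in WMJJ were those of Gohir.A08G108900 and Gohir.A11G112800. Gohir.A08G108900 rose from 0, 2.83 and 0.459 to 12.4, 6.19 and 12.7 in WMJJ (3.16 ± 0.53, limma adjusted p = 1.42e-04), and read 9.46, 10.6 and 12.4 in NemX_ctl and 3.55, 0.76 and 2.57 in NemX_rkn. The difference was 5.33 ± 0.74 (limma adjusted p = 4.05e-04). In a fit on the WMJJ libraries alone the increase was not called (limma adjusted p = 0.0133). Gohir.A11G112800 rose from 1.63, 2.13 and 1.18 to 59.9, 34.7 and 66.2 in WMJJ (4.63 ± 0.45) and to 27.2 to 93.0 in SJ2_rkn, while NemX read 3.89 to 18.2 and 5.03 to 6.79 (difference 5.13 ± 0.64, limma adjusted p = 1.70e-04).

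The most negative differences from NemX were -3.69 ± 0.53 for Gohir.A01G188100 (limma adjusted p = 4.69e-04) and that of Gohir.D02G099900 given above. Gohir.A01G188100 is a low gene that went from 4.9, 3.76 and 2.62 to 0.598, 0.322 and 0.716 in WMJJ, while NemX_ctl was at 1.16, 0 and 0.211 and NemX_rkn at 2.59, 1.98 and 2.05. A single gene, Gohir.D07G183000, was called up in WMJJ and down in NemX. It read 14.9, 14.6 and 12.2 in WMJJ_ctl and 36.1, 26.8 and 48.5 in WMJJ_rkn (1.35 ± 0.29, limma adjusted p = 0.00192), and 42.6, 31.3 and 38.1 in NemX_ctl and 13.1, 18.2 and 10.8 in NemX_rkn (-1.40 ± 0.29, limma adjusted p = 0.00795). The call in WMJJ was lost without the third control or the third infested library (limma adjusted p = 0.0101 and 0.0154). The pair of opposite calls was also lost without any 1 of the 6 NemX libraries or the first infested WMJJ library, with 0.1 added, with equal library totals and without an intensity trend.

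Changes that set WMJJ apart from both other genotypes were few. The response was called higher in WMJJ than in SJ2 and in NemX for 67 genes (0.143% of those tested) and lower for 85 (0.182%), and these 2 tests share the WMJJ libraries. Of them, 65 and 82 were also called in the WMJJ response itself. The 65 genes had a median of 5.61, 6.08 and 6.0 in WMJJ_ctl and 30.7, 28.4 and 32.7 in WMJJ_rkn, against 16.7 to 22.7 and 20.1 to 23.7 in SJ2 and 10.1 to 13.7 and 15.7 to 18.3 in NemX. The choice of these genes on the same libraries favours low WMJJ controls and high infested WMJJ libraries, so the levels are a description. The 82 genes had a median of 57.6 to 68.2 in WMJJ_ctl and 8.94 to 14.1 in WMJJ_rkn. NemX_ctl was at the same level, 60.5 to 63.4, and came down to 32.5 to 39.6, while SJ2 stayed at 18.4 to 21.8 and 13.9 to 17.3.

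The response was spread over the genome. On the A subgenome 1308 genes rose and 1119 fell of 23164 tested (5.65% and 4.83%), and on the D subgenome 1312 and 1143 of 23532 (5.58% and 4.86%). The median log2 fold change of the called genes was 1.55 and -1.54 on A and 1.54 and -1.52 on D. A further 117 tested genes have identifiers with no chromosome, and 3 of them rose and 2 fell. More genes rose than fell on 21 of the 26 chromosomes. The share that rose ran from 4.57% on D04 to 6.88% on A09, and the share that fell from 3.53% on A06 to 6.17% on D11.

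**Figure D5:**
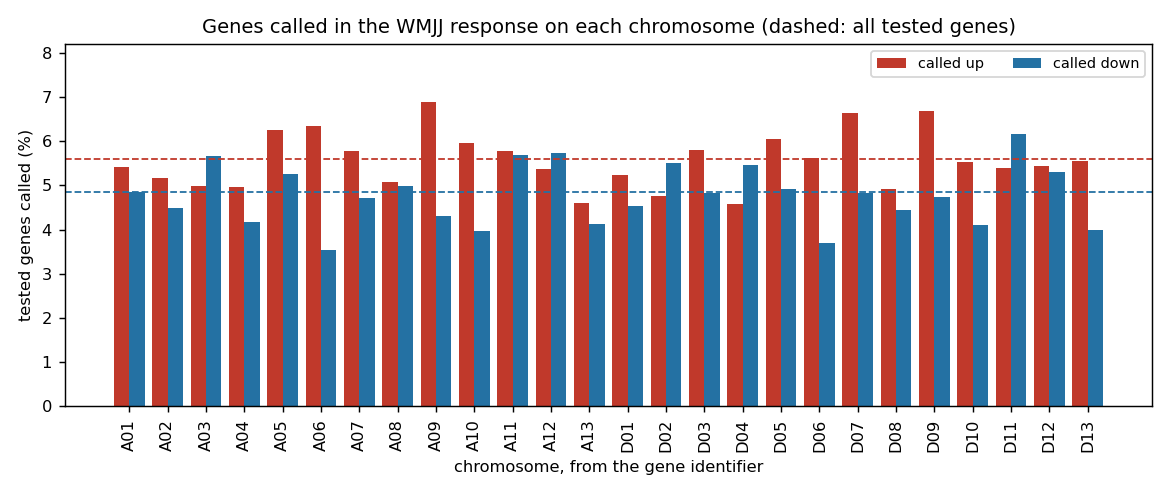
Percent of tested genes called up (red) and down (blue) in the WMJJ response on each of the 26 chromosomes named by the gene identifiers, with dashed lines for all tested genes (5.6% and 4.84%). The bars stay between 3.53% and 6.88%, and D02 has 4.76% up and 5.5% down.

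Chromosome D02, where a resistance region of WMJJ has been placed, had 83 genes that rose (4.76%) and 96 that fell (5.5%) of 1745 tested. It was number 24 of 26 for the share that rose and number 5 for the share that fell. In the tests against SJ2, 17 genes on D02 were higher (0.974%, against 1.12% of all tested genes) and 85 lower (4.87%, against 3.95%). In those against NemX 13 were higher (0.745%, against 1.05%) and 11 lower (0.63%, against 0.414%). The 2 largest increases on D02 were in Gohir.D02G225300, from 0.319, 0.86 and 2.53 to 15.5, 13.7 and 24.4 (3.57 ± 0.41, limma adjusted p = 1.91e-06), and Gohir.D02G142700, from 1.61, 1.52 and 1.54 to 12.9, 14.4 and 13.6 (2.78 ± 0.33, limma adjusted p = 2.56e-06). The infested level of the second was that of SJ2_rkn, at 12.8 to 15.1, and the low value of the WMJJ controls was what differed from SJ2_ctl, at 8.97 to 9.57. Its response was 2.23 ± 0.46 above that of SJ2 (limma adjusted p = 0.00286) and 2.48 ± 0.46 above that of NemX (limma adjusted p = 0.00409). The difference from NemX was no longer called without the first control, the first or the third infested library of WMJJ, or the first or the third infested library of NemX (limma adjusted p of 0.0103 to 0.0152), nor the difference from SJ2 without the third library of both WMJJ groups (limma adjusted p = 0.0146).

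After Gohir.D02G099900, the largest decrease on D02 was in Gohir.D02G184500, from 33.3, 26.7 and 25.6 to 2.05, 0.4 and 1.57 (-4.10 ± 0.50, limma adjusted p = 4.35e-06). SJ2 held this gene at 1.19 to 2.96 in controls and at or under 2.77 after infestation, and NemX went from 14.6 to 21.0 to 1.93 to 5.15. The difference from SJ2 was -3.12 ± 0.71 (limma adjusted p = 0.00625), and it lost its call without any 1 of the WMJJ controls, the second infested WMJJ library, the first or the second SJ2 control, or the first or the third infested SJ2 library (limma adjusted p of 0.0107 to 0.0206). It was also lost with 0.1 in place of 0.5 added to the values (limma adjusted p = 0.148), since SJ2 lies near 0.

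Called genes stood next to each other at times. In the order of identifiers, 489 of the 2620 genes that rose on chromosomes (18.7%) and 459 of the 2262 that fell (20.3%) were in runs of 2 or more tested genes called in 1 direction. That order was not checked against a map. The longest runs had 5 genes. Upward it went from Gohir.A06G019800 to Gohir.A06G020300, with log2 fold changes of 2.98 ± 0.32, 1.17 ± 0.12, 1.78 ± 0.21, 1.63 ± 0.27 and 1.60 ± 0.26. Gohir.A06G019800 went from 1.13, 0.728 and 0.916 to 10.6, 15.2 and 7.51, and Gohir.A06G020000, the most abundant, from 57.2, 54.9 and 49.4 to 124, 127 and 114. The first 3 of these genes rose in SJ2 too, and the first and the third in NemX.

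The longest run downward went from Gohir.D11G316533 to Gohir.D11G317100, with log2 fold changes of -1.23 ± 0.32, -2.83 ± 0.28, -1.34 ± 0.31, -1.74 ± 0.23 and -2.03 ± 0.18. Gohir.D11G316600 went from 135, 130 and 125 to 18, 20 and 15.9, and Gohir.D11G317100 from 88.3, 73.4 and 78.7 to 14.4, 28.2 and 17.4. WMJJ_ctl held Gohir.D11G317100 higher than SJ2_ctl, at 11.3 to 12.1, and NemX_ctl, at 21.6 to 23.2. All 5 fell in SJ2, and Gohir.D11G316600 fell in NemX. The 2 lowest genes of the run, Gohir.D11G316533 and Gohir.D11G316800, lost their calls in the fit on the WMJJ libraries alone (limma adjusted p = 0.0472 and 0.0223). They also lost them without single libraries, the first or second control and the second or the third infested library for the former (limma adjusted p of 0.0154 to 0.0426) and the third control and the first or the third infested library for the latter (limma adjusted p of 0.012 to 0.0251). Similar genes in a tandem array could have shared reads, which was not tested.

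On D02 there were 3 runs upward with 6 of the 83 genes that rose, and 8 downward with 19 of the 96 that fell. Over all chromosomes, 18.7% of the genes that rose and 20.3% of those that fell were in such runs. The longest held 4 genes, from Gohir.D02G083700 to Gohir.D02G084000, and is named here after its values were seen. Gohir.D02G083700 went from 237, 186 and 155 in WMJJ_ctl to 28.0, 38.1 and 21.3 in WMJJ_rkn (-2.72 ± 0.25), with 0.99 in SJ2 and -0.74 in NemX, neither of them called, and its response was called lower in WMJJ than in both. The other 3 had log2 fold changes of -3.14 ± 0.35, -1.02 ± 0.24 and -1.53 ± 0.28, and no called difference from SJ2 or NemX.

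Of the few genes with a stated function, 2 encode receptors of the TIR-NBS-LRR class, intracellular proteins that trigger defence. Neither was called in WMJJ. Gohir.A11G297600 read 92.2, 100 and 76.0 in WMJJ_ctl and 75.4, 90 and 54.0 in WMJJ_rkn, and the groups overlapped (-0.31 ± 0.18, limma adjusted p = 0.232). Gohir.D11G312800 read 5.29, 5.72 and 3.99 and then 4.55, 4.0 and 3.25 (-0.31 ± 0.19, limma adjusted p = 0.281). For the first gene, WMJJ_ctl overlapped NemX_ctl, at 93.4 to 126, and lay above SJ2_ctl, at 40.6 to 55.4. WMJJ held the second gene well below NemX, where it was at 25.4 to 33.6 without and 17.5 to 23.2 with nematodes. The study chose both genes from these libraries as higher in NemX than in SJ2 controls, after removing genes enhanced in WMJJ. That choice favours a WMJJ level below NemX, so the levels are a description.

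A further 3 genes, Gohir.D01G218500, Gohir.A06G146800 and Gohir.A06G159701, belong to the response to nematode category, which holds other genes that are not described here. They were taken from genes that the study shows as induced in SJ2 alone in these libraries. A weak response in WMJJ and a difference from SJ2 follow from that choice, and the values are a description of these 3 and not of the category. Gohir.D01G218500 went from 32.0, 41.9 and 31.7 to 66.4, 69.2 and 61.5 in WMJJ (0.90 ± 0.19), under the fold threshold, and without the second control it was called at 1.03. SJ2 went from 10.4 to 20.4 to 85.5 to 92.8. Gohir.A06G146800 read 4.56, 8.74 and 7.43 and then 4.92, 6.58 and 4.42 (-0.33 ± 0.39), and Gohir.A06G159701 read 17.5, 32.9 and 36.6 and then 31.2, 38.8 and 30.3 (0.26 ± 0.26). In both the groups overlapped.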

How the data were processed

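Root RNA of 3 cotton genotypes, with and without RKN, was sequenced from 18 libraries, 3 in each of 6 groups. Reads were checked (FastQC 0.11.9), trimmed (Trimmomatic 0.39) and quantified by the authors with kallisto 0.46.1 on the cotton TM-1 genome release UTx v2.1, and went through tximport into edgeR 3.13. They used the MiSeq and HiSeq2500 platforms, and a stranded kit for part of the libraries, which are not named. The authors deposited 1 table of normalized signal values near CPM, and its normalization is not stated. The steps between low values gave a depth for each library, but about 62.1% to 68.5% of low values lay within 10% of a whole read, so whole reads were not recovered and no count test was run.

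Differences were tested in R 4.3.3 with limma 3.58.1 on log2(value + 0.5), with 1 coefficient per group over all 18 libraries and an intensity trend, for genes with a mean of at least 1. Fold changes on this scale understate the change of low genes. The plan named limma for such values. P-values were adjusted by Benjamini-Hochberg over 46813 genes in each comparison, and genes were called where the adjusted p was under 0.01 and the log2 fold change beyond 1 in size. The labels call the libraries replicates without tying them to single plants, so p-values measure the spread between these samples. Groups and columns were matched by name, and 0 columns were left unused. In simulated data each gene took its mean over the 18 libraries, with a fixed spread set alike for all genes. That spread was not taken from the WMJJ libraries, and only genes with a mean of at least 5 were changed. Of those, 82.4% of genes changed by 1.5 on the log2 scale were recovered over 46813 genes, and 100% of those changed by 2 or 3. Recovery of lower genes was not tested.

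The genes named were the 2 with the largest changes in each direction, the 2 most abundant, those at 0 in controls, those on D02, those with the largest differences from SJ2 and NemX or opposite calls, those called alike in all genotypes, the longest runs of neighbours, and 5 genes with a stated function. The members and lists were chosen with earlier results of these data known. The alternatives were other added values (0.1 and 1), no filter or a mean of at least 5, a replicate block, only the compared genotypes, an adjusted p below 0.05, no fold threshold, equal totals, median-of-ratios scaling, no trend and each library left out in turn. Leaving out the third library of both WMJJ groups was added after seeing the data.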

Additional observations from a re-analysis of the deposited data

Results flagged for a closer look

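The response of WMJJ differed from that of another genotype by the test of the difference itself in the results that follow, given as WMJJ minus the other on the log2 scale. Over all tested genes 526 were higher and 1850 lower than in SJ2, and 490 higher and 194 lower than in NemX.

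Against SJ2, the response was higher for Gohir.D03G161700 (5.25), Gohir.D03G161800 (3.88) and Gohir.D02G142700 (2.23). It was lower for Gohir.D03G050800 (-6.27), Gohir.D07G187200 (-4.64), Gohir.A03G160500 (-4.44), Gohir.D07G183000 (-3.46), Gohir.D02G184500 (-3.12), Gohir.D02G099900 (-2.59), Gohir.A06G146800 (-2.26), Gohir.D10G056600 (-2.19), Gohir.A06G159701 (-1.79), Gohir.D01G218500 (-1.62) and Gohir.A05G249500 (-1.24). Of these, Gohir.D01G218500, Gohir.A06G146800 and Gohir.A06G159701 were chosen as induced in SJ2 alone, and Gohir.D03G161700, Gohir.D03G161800, Gohir.D03G050800 and Gohir.A03G160500 had opposite calls in the 2 genotypes, so the choice itself favours their differences. Gohir.D07G187200 was likewise chosen for the size of its difference from SJ2. The calls of Gohir.A06G146800 and Gohir.A06G159701 were lost without some single libraries of WMJJ or SJ2 (limma adjusted p up to 0.0328 and 0.012). The value of Gohir.A05G249500 lost its call without any 1 of 8 of the 12 libraries compared, and with equal library totals.

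Against NemX, the response was higher for Gohir.A08G108900 (5.33), Gohir.A11G112800 (5.13), Gohir.D01G216800 (5.06), Gohir.A05G316200 (4.41), Gohir.D03G161700 (3.28), Gohir.D07G183000 (2.75), Gohir.D03G161800 (2.70), Gohir.D02G142700 (2.48) and Gohir.D11G026600 (1.60). It was lower for Gohir.A01G188100 (-3.69), Gohir.D02G099900 (-3.28) and Gohir.D11G008500 (-2.99). Gohir.A08G108900, Gohir.A11G112800, Gohir.A01G188100 and Gohir.D02G099900 were chosen for the size of their difference from NemX. Gohir.D07G183000 was chosen for opposite calls in WMJJ and NemX, so the choice itself favours the differences of these genes. Gohir.D07G183000 stood between the others, since its WMJJ response was below that of SJ2 and above that of NemX.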

How the results depend on the processing

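The directions of the named genes held under every alternative with 1 exception, Gohir.A06G159701, which was not called in WMJJ and moved to -0.06 without the first WMJJ control (-0.06 to 0.46 over the libraries left out). In the WMJJ response, 30 of the 41 named genes kept their call, or its absence, in every setting tried. The 41 include the genes with a stated function, none of which was called in WMJJ. Many of the others were chosen for large called changes in these libraries, which favours kept directions and kept calls. The calls of 9 of 14 differences from SJ2 and of 9 of 12 differences from NemX held in every setting tried. The 2623 genes that rose stayed within 1.5 times that count everywhere, from 1868 (only WMJJ libraries fitted) to 3741 (no fold threshold), and leaving out 1 library gave 2101 to 2539. The 2264 that fell became 1505 with only the WMJJ libraries fitted, and 1742 to 2235 without 1 library. At an adjusted p below 0.05, 1179 genes were higher than in SJ2, 1021 higher than in NemX and 608 lower than in NemX. With equal library totals 849 were higher than in SJ2. Without an intensity trend 234 were higher and 81 lower than in NemX. Without the third library of both WMJJ groups, chosen after seeing the data, 2017 genes rose and 1732 fell, 313 were higher than in SJ2, and 217 were higher and 85 lower than in NemX. Without 1 library, 345 to 585 genes were higher and 1504 to 1990 lower than in SJ2, and 222 to 525 higher and 74 to 353 lower than in NemX.

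The replicate numbers paired the WMJJ libraries in part, most clearly the third control with the third infested library. The deviations of same-numbered libraries from their group means correlated at 0.072, 0.18 and 0.442, and those of differently numbered libraries at -0.291 to 0.131. The first control correlated best with the second infested library (0.131). With a replicate block 2728 genes rose and 2397 fell, 637 were higher and 2031 lower than in SJ2, and 606 were higher and 268 lower than in NemX, and no call of a named gene changed. Depth limits the lowest genes, where 1 read in the shallowest WMJJ library is worth 0.3231 units.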
